A study of Mus musculus with 21 samples.

Results

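The mouse phospholipase D family comprises 6 genes, Pld1 to Pld6, taken here by their symbols from a table of 24498 genes measured in mouse hippocampus. The family was chosen by the measured levels of Pld5, which was high in ventral hippocampus of control mice given ethanol and low elsewhere, so the Pld5 levels below are a description and carry no test. All 6 genes were found in the table, and all 6 were among the 14578 genes with enough reads to test.

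The study sequenced messenger RNA from the hippocampus of male mice of 8 weeks after an intraperitoneal injection of ethanol (2 g per kg, a 20% solution in saline), with or without knockdown of Acss2, the enzyme that turns acetate into acetyl-CoA. The groups used were ventral hippocampus with Acss2 knockdown (n = 3 libraries), ventral control (n = 4), dorsal knockdown (n = 4), dorsal control (n = 3) and 1 knockdown library of total hippocampus, all after ethanol. The knockdown vector was AAV2/9 U6.shACSS2.CMV.EGFP, a virus that carries a short hairpin RNA under a U6 promoter and a green fluorescent protein under a CMV promoter. The sample protocol places the injection in dorsal hippocampus, the series text can be read as a systemic injection, and neither describes a vector for the controls. No genotype, strain or time between ethanol and dissection is given in the labels, and they do not say whether replicates are separate animals, so every spread below is a spread between libraries.

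Libraries with over 1000000 gene reads were used. The 15 that passed held 2819837 to 13240179, and the only ethanol libraries below that limit, ventral knockdown 1 and dorsal knockdown 5, were far below it at 8744 and 5021. The 4 untreated libraries held 4279 to 221847 gene reads and 0 or 1 Pld5 reads each, so ethanol could not be compared with no ethanol for these genes. Acss2 itself averaged 42.9 ± 18.1 CPM in the 3 ventral knockdown libraries and 49.9 ± 3.02 in the 4 ventral controls (mean ± SD). In dorsal hippocampus it averaged 30.5 ± 13.8 CPM with knockdown (n = 4) and 54.7 ± 3.33 without (n = 3). CPM are reads of a gene per 1000000 gene reads, after TMM scaling. The fitted difference was -0.21 in ventral (SE 0.32, adjusted p = 1.00) and -0.84 in dorsal hippocampus (SE 0.32, adjusted p = 0.964, edgeR), so Acss2 passed the test in neither region.

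The libraries labelled ventral did not all carry the same regional markers. The summed level of 6 markers of ventral hippocampus, among them Coch, Dlk1 and Htr2c, was 108 to 175 CPM in ventral knockdown and 247 to 455 in ventral control, against 116 to 314 in dorsal knockdown and 116 to 319 in dorsal control. For 5 markers of CA1, a field of hippocampal pyramidal neurons, with Wfs1 and Fibcd1 among them, the sum was 535 to 1082 CPM in ventral knockdown and 125 to 355 in ventral control, against 398 to 608 in dorsal knockdown and 687 to 861 in dorsal control. On both sums the ventral knockdown libraries lay outside the range of the ventral controls and largely among the dorsal libraries. For the ventral markers this did not hold in full by a mean log2 score, which weights the markers equally. That score was 0.20 in ventral knockdown 4, just inside the 0.18 to 1.64 of the ventral controls. Markers of choroid plexus, the tissue that makes cerebrospinal fluid, summed to 15633 CPM in ventral control 4 and to 47.5 to 638 in the other 14 libraries. Ventral control 1 had the smallest share of its gene reads in Rn45s, the ribosomal RNA precursor, at 0.625% against 1.08% to 20.7% in the other 14.

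Phospholipases D cleave the head group from a phospholipid. Pld1 and Pld2 turn phosphatidylcholine into choline and phosphatidic acid, a lipid messenger, and when ethanol is present they can attach the lipid to ethanol instead, giving phosphatidylethanol, a marker of alcohol intake. Pld3 and Pld4 are endolysosomal enzymes that trim single-stranded nucleic acids, and Pld4 is made mainly by microglia in the brain. Pld6 sits on mitochondria, where it acts on cardiolipin and in the making of piRNAs. No enzymatic activity is established for Pld5.

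The catalytic signature of the family is the HKD motif: a histidine, any residue, a lysine, any 4 residues and an aspartate. A search of the coding sequences annotated by GENCODE M21 found it 2 times in Pld1, Pld2 and Pld4, 1 time in Pld3 and Pld6, and 0 times in Pld5. The coding stretches of 54 bases are shown because they set Pld5, the gene with the divergent expression, beside its relatives. Each is printed 5′ to 3′ on the coding strand, with the codons of the histidine, lysine and aspartate, or those aligned with them, in capitals (mm10).
Pld5, first site, chr1:176044859-176044912, minus strand: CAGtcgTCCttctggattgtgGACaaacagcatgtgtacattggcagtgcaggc
Pld3, first site, chr7:27539374-27539427, minus strand: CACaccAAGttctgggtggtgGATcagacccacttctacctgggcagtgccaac
Pld4, first site, chr12:112765048-112765101, plus strand: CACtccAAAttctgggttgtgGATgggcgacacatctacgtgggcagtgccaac
Pld1, first site, chr3:28076442-28076495, plus strand: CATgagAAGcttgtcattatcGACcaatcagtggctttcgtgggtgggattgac
Pld2, first site, chr11:70552737-70552790, plus strand: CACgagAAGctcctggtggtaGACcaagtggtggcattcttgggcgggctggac

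At the first site Pld5 differed from Pld3 by H199Q and K201S and from Pld4 by H212Q and K214S, counting residues of Pld3 or Pld4 from the initiator methionine. The aspartate was kept, with GAC in Pld5 and GAT in Pld3 and Pld4. The second site of Pld4 and the stretches aligned with it in Pld5 and Pld3 were each joined across 1 or more introns.
Pld5, second site, chr1:175964071-175970517, minus strand, spliced: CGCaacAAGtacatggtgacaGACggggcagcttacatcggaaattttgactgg
Pld4, second site, chr12:112768082-112768439, plus strand, spliced: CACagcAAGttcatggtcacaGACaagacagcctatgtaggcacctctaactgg
Pld3, second site, chr7:27532472-27532614, minus strand, spliced: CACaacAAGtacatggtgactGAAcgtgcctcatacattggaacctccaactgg

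At this second site the change from Pld4 was H426R in Pld5 and D433E in Pld3, so both paralogs depart from the motif there, at different residues. Over their aligned residues Pld5 was 36.1% identical to Pld3 and 33.8% to Pld4, against 44.8% between Pld3 and Pld4 and 57.8% between Pld1 and Pld2.

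Pld5 (ENSMUSG00000055214.15, protein coding, chromosome 1, 175962306 to 176275312, minus strand, mm10) was detected at a low level in every deep library and stood higher in ventral control. It had 2.22, 0.827 and 2.07 CPM in ventral knockdown 2, 3 and 4, against 5.23, 20.7, 23.3 and 22.8 CPM in ventral control 1, 2, 3 and 4. The same gene had 2.70, 3.0, 2.61 and 3.47 CPM in dorsal knockdown 1 to 4, against 2.67, 2.38 and 3.29 CPM in dorsal control 1 to 3. The total-hippocampus knockdown library had 1.47 CPM. Every ventral control library was above each of the other 11 libraries, and 3 of the 4 were far above them.

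**Figure D1:**
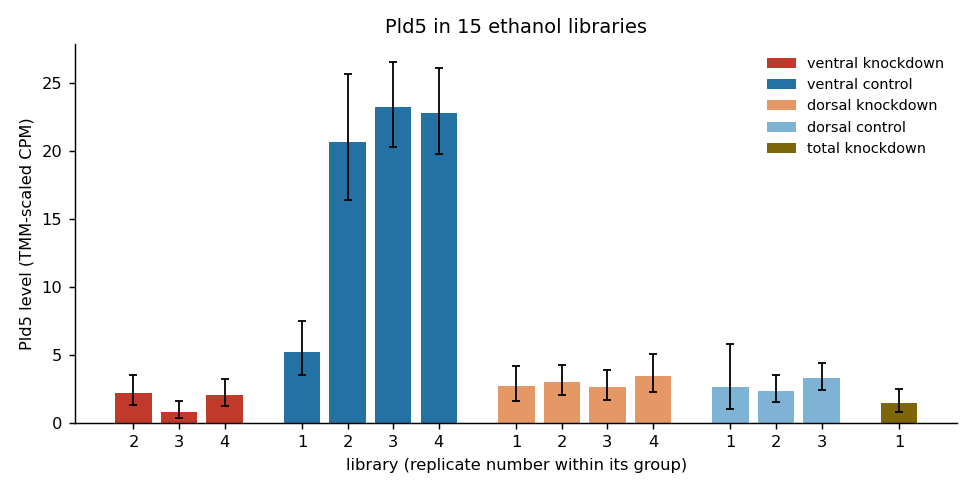
Pld5 level in TMM-scaled CPM (vertical axis) in each of the 15 ethanol libraries with over 1000000 gene reads (horizontal axis, replicate number, colour by group); bars are single libraries and error bars exact 95% Poisson intervals of the count. Ventral control 2 to 4 sit at 20.7 to 23.3 CPM, ventral control 1 at 5.23, and the other 11 libraries at 0.827 to 3.47.

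Group means were 1.71 ± 0.764 CPM in ventral knockdown (n = 3) and 18 ± 8.58 in ventral control (n = 4, ± SD), a fitted log2 fold change of -3.40. In dorsal hippocampus they were 2.94 ± 0.388 in knockdown and 2.78 ± 0.466 in control (n = 4 and 3), with a fitted value of 0.07 and overlapping groups. The difference between the 2 knockdown effects, ventral minus dorsal, was -3.47. Between regions, Pld5 was 6.48 times as high in ventral control as in dorsal control by the means, a fitted log2 fold change of 2.68. In the knockdown arm the fitted value for ventral over dorsal was -0.79, and the ventral knockdown libraries all lay below the dorsal knockdown ones. In order of their means the groups ran ventral control, dorsal knockdown, dorsal control and ventral knockdown, and only dorsal knockdown and dorsal control, neighbours in that order, overlapped. Because these are whole-tissue libraries, fewer cells that express a gene and less of its RNA in each cell cannot be told apart. Ventral knockdown and ventral control also differed in the summed regional markers given above, so vector and tissue sampled cannot be told apart here.

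Of all 14578 genes tested, 1.63% were lower in every ventral knockdown library than in any ventral control, 3.73% were higher in every ventral control than in any dorsal control, and 25 genes (0.171%) were above all dorsal and all ventral knockdown libraries in every ventral control. Pld5 belongs to all of these by the way it was chosen, and nothing is read from that. In ventral knockdown against dorsal knockdown, 1.03% of genes were lower with no overlap.

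The height of Pld5 in ventral control 1 was close to that of other groups. Its 29 reads gave 5.23 CPM with an exact 95% Poisson interval of 3.50 to 7.51, and dorsal knockdown 4, the next library down, had 26 reads and 3.47 CPM with an interval of 2.27 to 5.09. These intervals overlap and cover counting error only. Without ventral control 1 the other 3 ventral controls averaged 22.2 ± 1.39 CPM. The fitted values of Pld5 ranged from -3.70 to -3.06 for ventral knockdown over ventral control, and from 2.50 to 2.99 for ventral control over dorsal control, over all the alternatives run. The 4 ventral controls together held 536 Pld5 reads and the other 11 libraries 237.

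The genes whose levels followed Pld5 most closely were ranked by Pearson r of log2 CPM over the 15 libraries, among 13411 genes averaging 1 CPM or more. Among the first 8 were N4bp2 (0.899), Zic1 (0.888), Ankfn1 (0.878), Ano2 (0.876), Col6a3 (0.876), Prdm12 (0.873) and Six3 (0.871). Zic1 is a zinc-finger transcription factor, Six3 and Prdm12 are transcriptional regulators of neural development, Ano2 is a calcium-activated chloride channel and Col6a3 is a collagen chain. Ankfn1, Prdm12 and Six3 reached the average of 1 CPM only through ventral control, their means being below 1 CPM in each of the other groups. The ranking was made on the Pld5 values by which the family was chosen, so it supports nothing about them. These correlations describe 15 libraries that share groups, dissections and scaling, and they rest mostly on ventral control 2 to 4.

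Zic1 shows this. It had 9.61, 3.62 and 21.8 CPM in ventral knockdown 2 to 4, against 5.41, 91.8, 100 and 135 CPM in ventral control 1 to 4. In dorsal hippocampus it had 5.53 to 7.84 CPM in knockdown and 11.2 to 12.4 in control. Ventral control 1, the library in which Pld5 was lowest within its group, thus lay among the other groups for Zic1. N4bp2, a gene for a protein with a nucleic-acid-cutting domain, differed there. It had 5.91, 3.21 and 7.56 CPM in ventral knockdown 2 to 4, against 11.4, 12.8, 18.5 and 14.0 CPM in ventral control 1 to 4, and at most 9.51 in any dorsal library. All 4 ventral controls were above every other library for N4bp2.

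**Figure D2:**
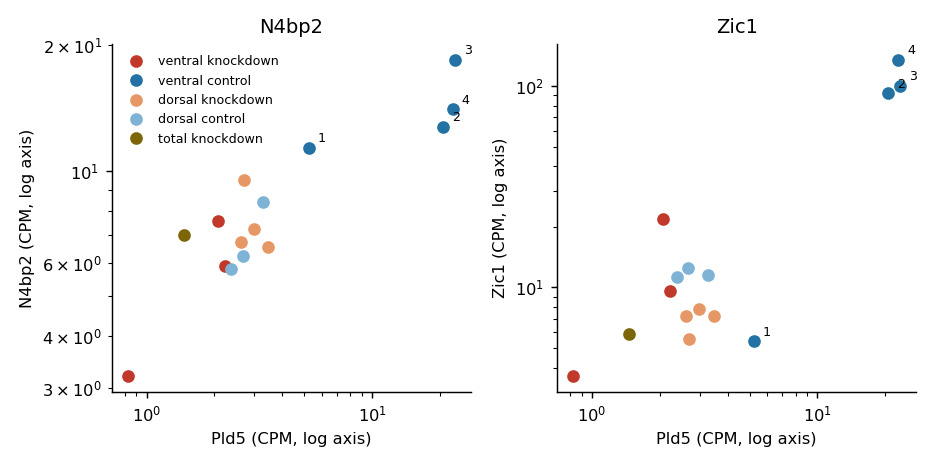
Levels of N4bp2 and Zic1 (vertical axes) against Pld5 (horizontal axis), in TMM-scaled CPM on log axes; points are the 15 libraries, coloured by group, with replicate numbers for ventral control. Ventral control 2 to 4 stand apart in both panels; ventral control 1 is above every library of the other groups for N4bp2 and among them for Zic1.

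With the group means subtracted, which leaves only how libraries of 1 group differ, the first 5 of 13411 genes included Zic1 (0.942), Gpr4 (0.940), Trim17 (0.916) and Col6a3 (0.906), over 14 libraries. Zic1 and Col6a3 were on both rankings. For each gene named from the deviations, as for Pld5, ventral control 1 and ventral knockdown 3 were the lowest libraries of their groups. The ranking by deviations was not repeated with libraries left out, and over all 15 libraries r was 0.293 for Trim17. Over the 11 libraries other than ventral control, r with Pld5 was 0.119 for Prdm12 to 0.742 for N4bp2 among the first 8 genes. Of the 8, leaving out 1 ventral control at a time kept 5 or 6 in the first 8, and ranking by Spearman correlation kept 0. Other family members were spread over the ranking, with r of 0.579 for Pld1, 0.0554 for Pld2, -0.0342 for Pld4 and -0.559 for Pld3.

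The summed level of Zic2, Zic4 and Zic5, relatives of Zic1 listed after its values were seen, was 14.4, 9.20 and 44.7 CPM in ventral knockdown 2 to 4, against 10.1, 56.1, 86.4 and 107 CPM in ventral control 1 to 4. In dorsal hippocampus it was 15.3 to 21.2 in knockdown and 11.6 to 20.2 in control. Zic genes mark septum and other tissue outside the hippocampus in adult brain, and here they were high in the same 3 ventral controls as Pld5. Ventral knockdown 4, at 44.7 CPM, was also above every dorsal library for this sum, while its Pld5 was at 2.07 CPM. The part of the Zic genes in the Pld5 difference was not tested. The choroid plexus sum was 48.0, 92.1, 638 and 15633 CPM in ventral control 1 to 4, beside Pld5 levels of 5.23, 20.7, 23.3 and 22.8, and its part in the Pld5 values was not tested. Of the other added lists, striatal markers summed to 97.4 to 137 CPM in ventral knockdown and 68.7 to 212 in ventral control, and hypothalamic markers to 2.48 to 30.8 and 3.94 to 13.5, with overlap in both. In dorsal knockdown and dorsal control the striatal sums were 73.5 to 235 and 103 to 156 CPM. The hypothalamic sums there were 2.27 to 153 and 2.38 to 3.71 CPM. Single markers went both ways in ventral knockdown over control, with fitted log2 values of 1.78 for Drd1 and -1.02 for Drd2. For the hypothalamic Trh and Nkx2-1 they were 1.23 and -2.86.

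The other 5 members, whose choice did not rest on their own values, were tested in the fit over all genes. By edgeR's quasi-likelihood test, 0 of 5 were called in ventral knockdown over control, where 0% of the 14578 genes were called. The same 0% held for dorsal knockdown over control, for ventral over dorsal in controls, for ventral over dorsal in knockdown, and for the difference between the knockdown effects. At an unadjusted p under 0.05 the shares of all genes were 4.07%, 4.58%, 5.58%, 2.17% and 4.61% in those 5 comparisons, and the members past it were 0, 1 (Pld4), 1 (Pld3), 0 and 0 of 5. DESeq2 called 35, 11, 13, 0 and 9 genes, with 0 of these 5 members among them. Without ventral control 1, edgeR called 8 genes for ventral knockdown, 6 for the control regions and 1 for the difference between effects, and without ventral knockdown 3 it called 2 for that difference, with 0 of the 5 members in any of these. A missed threshold does not show that levels were equal.

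**Figure D3:**
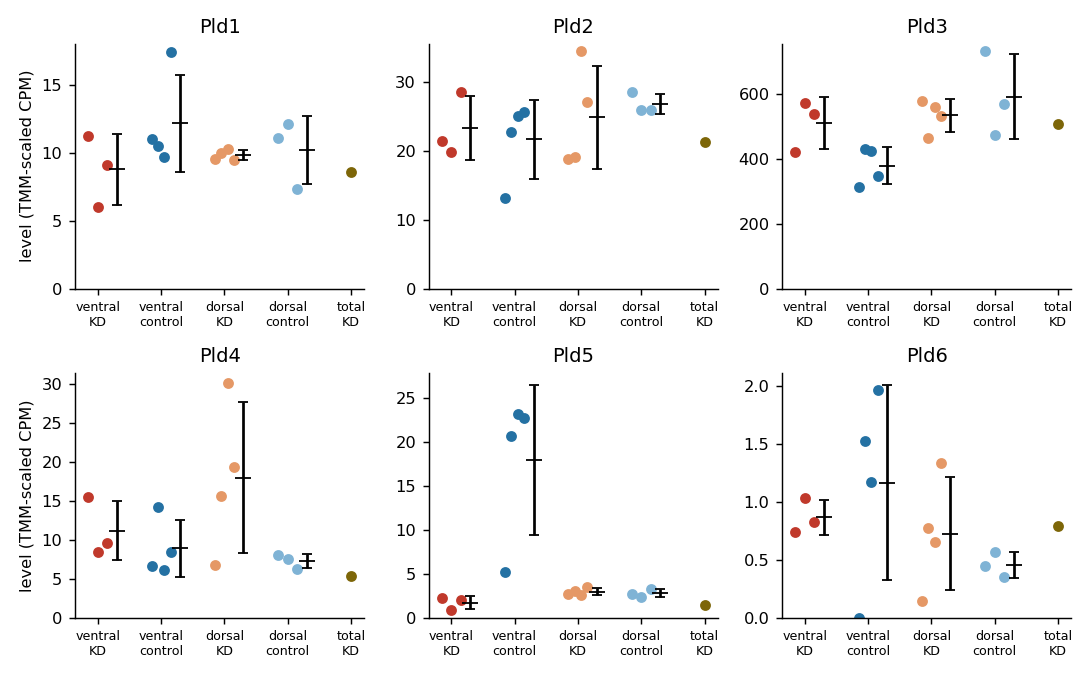
Levels of the 6 family members (TMM-scaled CPM, vertical axes starting at 0 and differing by panel) in ventral knockdown, ventral control, dorsal knockdown, dorsal control and total knockdown; points are libraries and bars the mean ± SD. Pld5 shows the high ventral controls, Pld3 the lower ventral controls, and Pld4 the wide spread of dorsal knockdown.

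Pld1 (chromosome 3, 27938695 to 28133362, plus strand) is the phospholipase D switched on by small GTPases such as Arf and by protein kinase C. It had 11.2, 6.0 and 9.11 CPM in ventral knockdown 2 to 4, against 11, 10.5, 9.71 and 17.4 CPM in ventral control 1 to 4. It had 9.51, 9.96, 10.2 and 9.48 CPM in dorsal knockdown 1 to 4, against 11.1, 12.1 and 7.35 CPM in dorsal control 1 to 3. The groups overlapped in both regions, and ventral control 4 was the highest library. The fitted log2 fold change was -0.48 in ventral hippocampus (SE 0.28, 95% interval -1.08 to 0.13, edgeR adjusted p = 1.00) and -0.04 in dorsal hippocampus (SE 0.29, interval -0.65 to 0.57, edgeR adjusted p = 0.999).

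Pld2 (chromosome 11, 70540064 to 70558110, plus strand) is the more constitutively active of this pair. It had 21.4, 19.8 and 28.5 CPM in ventral knockdown 2 to 4, against 13.2, 22.7, 25.0 and 25.6 CPM in ventral control 1 to 4. It had 18.7, 19.1, 34.4 and 27.1 CPM in dorsal knockdown 1 to 4, against 28.4, 25.9 and 25.8 CPM in dorsal control 1 to 3. Knockdown and control overlapped in both regions, with fitted log2 fold changes of 0.10 (SE 0.27, 95% interval -0.48 to 0.68) and -0.10 (SE 0.27, interval -0.68 to 0.48) in ventral and dorsal hippocampus. Every ventral control was below every dorsal control, by as little as 25.6 against 25.8 CPM, as were 5.54% of all genes, and the fitted difference was -0.30 (SE 0.27, edgeR adjusted p = 0.765). An opposite-strand pseudogene, Gm10418, covers 438 exon bases of Pld2 (7.01%), and the sources used here do not say whether the counting used strand, so reads there cannot be told apart.

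Pld3 (chromosome 7, 27532000 to 27553218, minus strand) was the most abundant member per kilobase of exon. It had 420, 572 and 537 CPM in ventral knockdown 2 to 4, against 314, 429, 425 and 348 CPM in ventral control 1 to 4. It had 580, 463, 560 and 532 CPM in dorsal knockdown 1 to 4, against 733, 474 and 567.9 CPM in dorsal control 1 to 3. The ventral controls were below all 3 dorsal controls, as were 5.54% of all genes, while ventral knockdown 2 overlapped the ventral controls. For ventral over dorsal in controls the log2 fold change was -0.64 (SE 0.21, 95% interval -1.09 to -0.19, edgeR unadjusted p = 0.00841, adjusted p = 0.731). For ventral knockdown over control it was 0.43 (SE 0.21, interval -0.02 to 0.88, edgeR adjusted p = 1.00), and for dorsal knockdown over control -0.15 (SE 0.21, interval -0.60 to 0.30).

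Pld4 (chromosome 12, 112760655 to 112768990, plus strand) varied most in dorsal knockdown. It had 15.5, 8.38 and 9.63 CPM in ventral knockdown 2 to 4, against 6.67, 14.3, 6.19 and 8.44 CPM in ventral control 1 to 4. It had 6.81, 15.6, 30.2 and 19.4 CPM in dorsal knockdown 1 to 4, against 8.00, 7.51 and 6.30 CPM in dorsal control 1 to 3. Dorsal knockdown 2, 3 and 4 were above the dorsal controls, and dorsal knockdown 1 was among them. The fitted log2 fold change was 1.32 in dorsal hippocampus (SE 0.44, 95% interval 0.38 to 2.26, edgeR unadjusted p = 0.00925, adjusted p = 0.954) and 0.35 in ventral hippocampus (SE 0.42, interval -0.56 to 1.25, edgeR adjusted p = 1.00). The difference between these effects, ventral minus dorsal, was -0.98 (SE 0.61, edgeR adjusted p = 0.998).

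Microglial markers ordered the dorsal knockdown libraries as Pld4 did. The summed level of 12 of them, with Cx3cr1, Tmem119 and C1qa to C1qc on the list, was 439 to 558 CPM in ventral knockdown and 340 to 726 in ventral control. It was 483, 741, 1248 and 806 CPM in dorsal knockdown 1 to 4, against 325 to 455 CPM in dorsal control. All 12 were higher in dorsal knockdown by their fitted values, with a median of 1.11 on the log2 scale, against 0.03 for all genes tested. Of the 12, 0 were called, as were 0% of all genes tested. Library by library, the dorsal knockdown with the lowest sum was the one with the lowest Pld4 and the one with the highest sum had the highest. In ventral knockdown the order was not kept. Ventral knockdown 3 had a sum of 534 with Pld4 at 8.38 CPM, and ventral knockdown 4 a sum of 439 with Pld4 at 9.63. The part of microglial content in the Pld4 values was not tested.

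**Figure D4:**
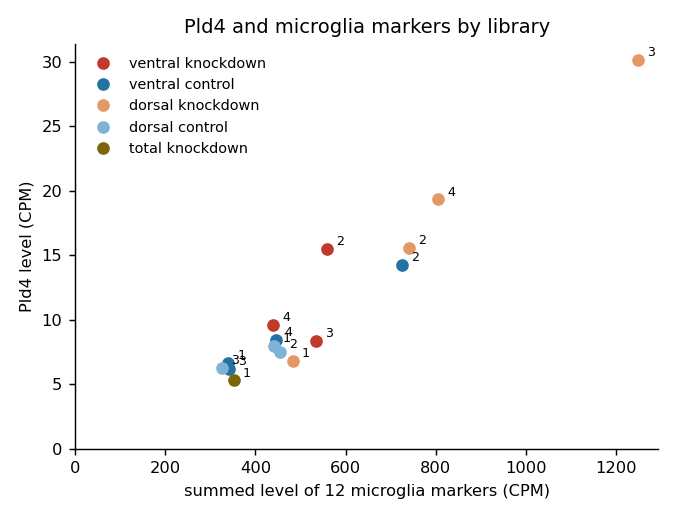
Pld4 level (vertical axis, TMM-scaled CPM) against the summed level of 12 microglial markers (horizontal axis, CPM) in 15 libraries, coloured by group with replicate numbers. Dorsal knockdown 3 is highest on both axes at 30.2 and 1248 CPM, and dorsal knockdown 1 lies near the dorsal controls.

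Pld6 (chromosome 11, 59783897 to 59787645, minus strand) was at the edge of detection, with 0 to 18 reads a library. It had 0.739, 1.03 and 0.829 CPM in ventral knockdown 2 to 4, against 0, 1.53, 1.17 and 1.97 CPM in ventral control 1 to 4. It had 0.142, 0.774, 0.653 and 1.34 CPM in dorsal knockdown 1 to 4, against 0.444, 0.570 and 0.350 CPM in dorsal control 1 to 3. The groups overlapped in each comparison. The 0 reads in ventral control 1 allow up to 0.665 CPM (exact 95% Poisson interval), and Pld6 reads were few in every library. For ventral over dorsal in controls the fitted value was 1.37 (SE 0.82, 95% interval -0.39 to 3.13). That interval holds both no difference and a large one. Pld6 fell out of the tested genes in a fit that left out a ventral control, so its entry to the test rested partly on that group.

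**Figure D5:**
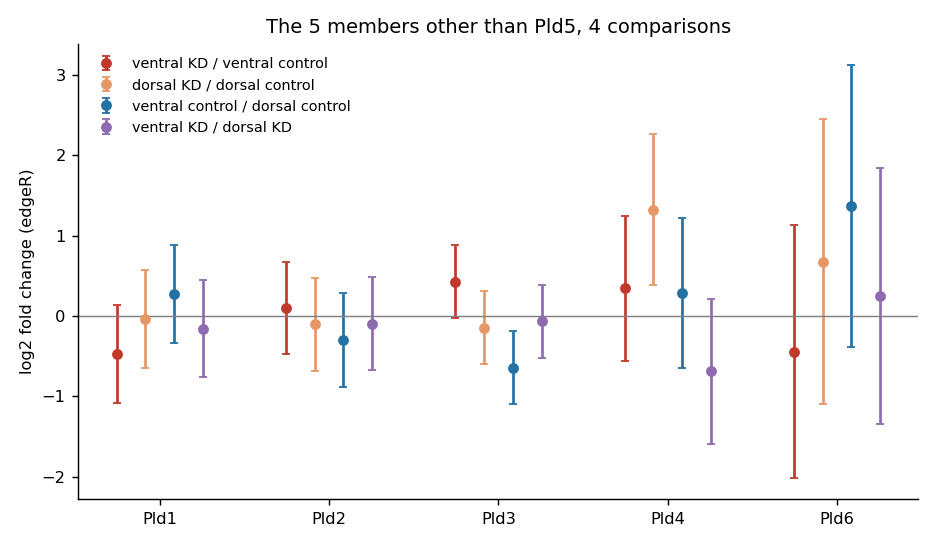
Fitted log2 fold change of the 5 members other than Pld5 (vertical axis, edgeR) in 4 comparisons, with 95% intervals; the horizontal line marks no change. Pld3 for ventral over dorsal control (-0.64) and Pld4 for dorsal knockdown over control (1.32) have intervals clear of 0, with adjusted p-values of 0.731 and 0.954.

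Levels of different members were compared as CPM per kilobase of exon. Over the 15 libraries the medians were 173 for Pld3, 3.99 for Pld2, 2.42 for Pld4, 0.769 for Pld1, 0.441 for Pld6 and 0.267 for Pld5. By group means Pld5 was below Pld6 in ventral knockdown (0.169 and 0.494 CPM per kilobase) and in dorsal knockdown (0.292 and 0.413), and close to it in dorsal control (0.275 and 0.259). By transcript length Pld5 was above Pld6 in both dorsal groups. In ventral control Pld5 averaged 1.78 ± 0.850 CPM per kilobase (SD, n = 4), beside 2.57 ± 1.07 for Pld4 and 0.937 ± 0.274 for Pld1, its neighbours in that order. Ranges of 1 SD around the means overlapped between Pld5 and each of these neighbours. The SD of Pld5 was wide through ventral control 1, at 5.23 CPM against 20.7 to 23.3 in ventral control 2 to 4. No test compared the members with each other. With the length of the main transcript in place of all exons the order of the 15-library medians was kept, and in ventral control Pld5 (5.06) stood just above Pld4 (4.49).

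Genes that act with the family were described from 6 lists, in comparisons in which edgeR called 0% of all genes tested. Among 21 regulators of Pld1 and Pld2, such as Arf family GTPases and the kinases that make their cofactor PIP2, 0 of 21 passed in any comparison by edgeR. Of these, 11 were higher and 10 lower in ventral knockdown than in ventral control, with a median log2 fold change of 0.01, against -0.01 for all genes tested. Ralb, a small GTPase that binds Pld1, averaged 17.4 ± 2.59 CPM in ventral knockdown libraries and 12.9 ± 2.21 in ventral controls, a fitted 0.43 (SE 0.20, edgeR adjusted p = 1.00). Between ventral and dorsal control, Pip5k1c, a PIP2-making kinase, differed by -0.63 (SE 0.30) at an edgeR adjusted p of 0.731.

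Of 30 enzymes that make or use phosphatidic acid by other routes, 0 passed by edgeR in any comparison. The median in ventral knockdown over control was 0.00, with 15 higher and 15 lower. Dgkk, a diacylglycerol kinase, had 1.23, 0.207 and 0.621 CPM in ventral knockdown 2 to 4, against 3.61, 6.38, 5.87 and 3.40 CPM in ventral control 1 to 4. All 3 knockdown libraries were below all 4 controls, as were 1.63% of genes. The fitted value was -2.80 (SE 0.69, edgeR adjusted p = 0.634). DESeq2 gave an adjusted p of 0.0228 for it, the lowest of the alternatives run, which reached up to 1.00. In dorsal hippocampus Cds1, which turns phosphatidic acid into CDP-diacylglycerol, averaged 58.1 ± 7.79 CPM in knockdown and 101 ± 26.6 in control, a fitted -0.80 (SE 0.29, edgeR adjusted p = 0.954).

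Of 11 genes for choline and phosphatidylcholine, 9 were tested and 0 passed, with medians of 0.09 in both knockdown comparisons. The 5 phospholipases D outside the family, all tested, had 0 calls. Enpp2, autotaxin, which makes lysophosphatidic acid and is abundant in choroid plexus, had 153, 134 and 79.7 CPM in ventral knockdown 2 to 4, against 114, 149, 197 and 4276 CPM in ventral control 1 to 4. Ventral control 4, the library with the choroid plexus markers, set its fitted value of -3.28 (SE 1.10, edgeR adjusted p = 0.913), which was -0.33 without that library. Napepld, which makes N-acylethanolamines, averaged 38.7 ± 15.6 CPM in ventral control and 20.4 ± 5.94 in dorsal control, a fitted 0.94 (SE 0.39, edgeR adjusted p = 0.731).

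Pld3 and Pld4 limit sensing of nucleic acids in endolysosomes. Of 9 genes of that route 7 were tested and 0 were called. By their fitted values 6 were higher and 1 lower in dorsal knockdown than in dorsal control. Their median was 1.13, against 0.03 for all genes tested. Unc93b1, which carries Toll-like receptors to endolysosomes, averaged 30.4 ± 16.5 CPM in dorsal knockdown libraries and 13.9 ± 1.82 in dorsal controls (fitted 1.13, SE 0.41, edgeR adjusted p = 0.954). Tlr7, a receptor for single-stranded RNA, averaged 5.11 ± 2.20 and 2.18 ± 0.692 CPM in the same groups (fitted 1.24, SE 0.49, edgeR adjusted p = 0.995). In the brain both are expressed largely by microglia, whose markers had higher fitted values in dorsal knockdown, as given above. The part of microglial content in the Unc93b1 and Tlr7 values was not tested. Of 10 genes for mitochondrial fusion and piRNAs, processes in which Pld6 acts, 5 were tested and 0 passed, with a median of -0.10 in ventral and -0.09 in dorsal knockdown over control.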

How the data were processed

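The deposited table holds the authors' raw counts for 21 libraries and 24498 genes, plus 5 summary lines that entered neither library sizes nor tests; 0 sample columns were left unused. HTSeq 0.6.1p1, STAR 2.5.2a and the mm10 build were named per the submitters' processing notes. The sources used here do not give the strand setting, while the labels' protocols name a directional kit.

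Members and gene lists (6 of pathways, 15 of cell type and region markers, others added later) were chosen with earlier results of these data known. Counts of 14 libraries in 4 groups were fitted in edgeR 4.0.16 (R 4.3.3): TMM scaling, filterByExpr with a minimum count of 10, quasi-likelihood F-test, Benjamini-Hochberg adjustment over 14578 genes and calls under 0.05. Means, SD and exact 95% Poisson intervals (counting error only) used TMM-scaled CPM, and likeness used log2 CPM with a prior count of 1. Named list genes were those called, otherwise the 2 smallest p-values in a comparison. Alternatives were the replicate number as a block, RLE scaling, no filter on low counts, a fit of only the compared groups, all 20 dorsal and ventral libraries, DESeq2 1.42.0, leaving out each library and, chosen after seeing the data, transcript length. The fit was checked on simulated counts. Some genes and sequences that these rules select are not reported here. Coding sequences came from GENCODE M21, translated and aligned with Biopython 1.88 (BLOSUM62, gap open 11, extend 1).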

Additional observations from a re-analysis of the deposited data

Results flagged for a closer look

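In the 12 sets of 4 libraries examined (6 members in ventral control and in dorsal knockdown), the library farthest from the others was looked at by its gap, and chance flags about 1 in 20 such sets. Pld1 in ventral control 4 was 17.4 CPM, against 9.71 to 11 in the other 3 ventral controls. Pld5 in ventral control 1 was 5.23 CPM, against 20.7 to 23.3 in the other 3; these are the values by which the family was chosen, so this is a description and the chance rate is not applied to it.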

How the results depend on the processing

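Of 350 tested values of the 5 members other than Pld5 under the alternatives, 336 kept their direction and stayed on the same side of the threshold, and 14 changed sign; their lowest adjusted p was 0.322. Over all 20 dorsal and ventral libraries edgeR called 1 gene for ventral knockdown (Pld5, chosen for that pattern) and 1 for the difference between effects (Prph). DESeq2 called 35, 11 and 13 genes for ventral knockdown, dorsal knockdown and the control regions, and 9 for the difference; the cause was not tested. Leaving out 1 library gave 0 to 8 calls for ventral knockdown and 0 to 6 for the control regions, the highest in both without ventral control 1. It gave 0 to 2 for the difference between effects (Prph and Unc13c without ventral knockdown 3, Pld5 without ventral control 1). Whether Pld5 was also among the larger sets of calls, by DESeq2 or with 1 library left out, is not given here. Pld5 was chosen for its levels in these groups, so no call of it is a test of them.

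Small fold changes turned sign when 1 library was left out. For dorsal knockdown, Pld1 ranged from -0.24 to 0.12, Pld2 from -0.30 to 0.014, Pld3 from -0.29 to 0.039 and Pld5 from -0.054 to 0.25. For ventral knockdown, Pld2 ranged from -0.076 to 0.21 and Acss2 from -0.60 to 0.0052. For ventral over dorsal knockdown, Pld1 ranged from -0.37 to 0.055, Pld2 from -0.26 to 0.10, Pld3 from -0.15 to 0.056 and Pld6 from -0.055 to 0.67. Pld4 in the control regions ranged from -0.015 to 0.43.

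Libraries with the same replicate number correlated at -0.38 to 0.40 in their deviations. Few numbers are shared between any 2 groups, so these values cannot show whether the numbers pair libraries. With the number as a block 0 genes were called in each comparison, and Pld6 for ventral over dorsal knockdown turned to -0.025. The depth of 2819837 to 13240179 gene reads limits Pld6, with at most 18 reads a library, and Pld5 outside ventral control, with 6 to 47.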
